A study of Mus musculus with 2 samples.

Results

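The 10 heat shock chaperone genes described here were Hspa1a, Hspa1b, Dnajb1, Hsph1, Hsp90aa1, Hspa8, Hsp90ab1, Hspd1, Hspe1 and Dnaja1, chosen by name from the 12798 genes of a single-cell UMI table of mouse colon CD8 T cells. They were split by their known regulation into 5 stress-inducible genes (Hspa1a, Hspa1b, Dnajb1, Hsph1 and Hsp90aa1) and 5 constitutive genes (Hspa8, Hsp90ab1, Hspd1, Hspe1 and Dnaja1), several of which stress raises further. A UMI is a molecular tag that lets each captured transcript be counted once. Together the 10 genes held 0.745% of all UMIs, and every one of them passed the filter on low counts.

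The cells came from a transfer model of colitis in Rag1 KO mice, hosts that lack their own T and B cells. Each host received 100000 naive CD4+CD45RBhighCD25- T cells from wildtype spleens and 500000 splenic TCRb+CD8b+CD4- T cells. The CD8 T cells came from Bcl6fl/flCd8aCre mice, in which Cre is driven by Cd8a sequences, or from Bcl6fl/fl mice with the same floxed gene and no Cre. Mice were 8 to 12 weeks old at transfer, and CD8+ T cells were taken from the colon lamina propria 6 to 10 weeks later. The deposited cell annotation names 2 groups, Crep and Cren, of 4 hashtags each; they were read as Bcl6fl/flCd8aCre and Bcl6fl/fl, although no source spells these names out. A hashtag is an antibody-borne barcode that marks the cells of 1 pooled input. The annotation lists the hashtag names under the heading donor, but no source says whether a donor is 1 mouse. What the tests measure is therefore hashtag-to-hashtag spread, which may be technical.

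All cells were captured in 1 pooled 10x 5′ library, and no cell barcode was repeated. The Crep group had 4157 cells and 12287132 UMIs and the Cren group 4405 cells and 13327631 UMIs, with 2635241 to 4201265 UMIs per hashtag. Levels are given as CPM, a gene's UMIs scaled to a common library total after TMM scaling of the hashtag sums. Sums over several genes and levels by cluster were scaled to plain totals, without TMM. Bcl6 had 31.9, 30.6, 30.9 and 24.3 CPM in Crep hashtags 1 to 4, against 16.6, 17.4, 15.6 and 20.7 CPM in Cren, which was higher in Crep (log2 0.75, edgeR adjusted p = 0.0293). The table counts whole genes, so it does not show whether the floxed exons were deleted. All 5 CD8 T cell markers looked for were present, with summed levels of 4616 to 5110 CPM in Crep and 4016 to 4687 CPM in Cren. The 6 myeloid markers summed to 166 to 189 CPM in Crep hashtags and 103 to 155 CPM in Cren hashtags. Among them, Itgax had 80.9 to 104 CPM in Crep and 14.9 to 81.0 CPM in Cren after TMM scaling. Of the B and plasma cell markers, Cd79a, Ms4a1 and Jchain were not among the genes analysed here, and the other 2 summed to 8.73 to 27.6 CPM in Crep and 12.9 to 36.4 CPM in Cren. The 3 CD4 T cell markers summed to 7.97 to 15.8 CPM in Crep and 3.41 to 10.7 CPM in Cren. Of these, Cd4 had 85 and 4 UMIs and was higher in Crep (log2 4.36, edgeR adjusted p = 0.000515). Cd40lg had 53 and 55 UMIs (log2 0.08, adjusted p = 0.97). Epithelial markers, without Krt8, summed to 9.87 to 17.3 CPM in Crep and 11.2 to 24.2 CPM in Cren. Col1a1 and Col1a2 were not among the genes analysed here, so the stromal and endothelial level is Pecam1 alone. It was 5.47 to 12.1 CPM in Crep and 8.48 to 18.2 CPM in Cren. NK and innate lymphoid markers, without Ncr1, summed to 30.1 to 42.2 CPM in Crep and 26.7 to 40.6 CPM in Cren. Gata3 made up most of that sum. Which cells these UMIs came from was not tested, nor was their part in the chaperone differences. The median mitochondrial share of UMIs per cell was 0.615% to 0.65% in Crep hashtags and 0.67% to 0.805% in Cren hashtags.

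Heat shock proteins keep other proteins folded. HSP70 proteins (Hspa1a, Hspa1b, Hspa8) bind exposed hydrophobic stretches of clients in cycles of ATP hydrolysis. HSP40 co-chaperones (Dnajb1, Dnaja1) hand clients to them and stimulate that hydrolysis, and HSP110 (Hsph1) exchanges the nucleotide. HSP90 (Hsp90aa1, Hsp90ab1) takes over kinases and steroid receptors, and the HSP60 and HSP10 pair (Hspd1, Hspe1) forms a folding chamber in mitochondria. Under heat or proteotoxic stress the transcription factor HSF1 binds heat shock elements, inverted repeats of the bases GAA, and raises the inducible genes many-fold. Tissue digestion at warm temperature is a known trigger of the same genes in isolated cells.

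The heat shock element letters are shown for the members whose promoter held them, because HSF1 is known to bind this sequence. Promoter windows of 300 bases, from 250 before to 50 after an annotated start, were taken from RefSeq on GRCm38.p6, where 7 of the 10 members had at least 1 window. Both strands were covered by searching GAANNTTC and TTCNNGAA, each its own reverse complement; the 2 can overlap each other. One or both occurred in 7 of the 12 windows of these members, which belong to 6 of the 7 genes, and in 15.1% of the 32851 windows of all genes. Capitals mark the matched letters in each stretch below, written 5′ to 3′ on the gene's own strand.
Hspa1a, chr17:34972217-34972296, minus strand: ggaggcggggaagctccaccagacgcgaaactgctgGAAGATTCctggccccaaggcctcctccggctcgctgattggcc
Hspa1b, chr17:34959299-34959378, minus strand: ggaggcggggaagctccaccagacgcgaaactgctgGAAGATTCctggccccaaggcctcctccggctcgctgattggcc
Hsph1, chr5:149636351-149636380, minus strand: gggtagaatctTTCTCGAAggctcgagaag
Hspe1, chr1:55088053-55088082, plus strand: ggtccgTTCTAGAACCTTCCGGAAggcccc
Hspd1, chr1:55088053-55088082, minus strand: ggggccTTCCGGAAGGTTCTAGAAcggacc
Dnaja1, chr4:40722333-40722362, plus strand: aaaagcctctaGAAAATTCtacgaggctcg

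The stretches of Hspa1a and Hspa1b were identical over 80 of 80 bases, and their whole windows over 98.7%. Those of Hspe1 and Hspd1 are the same bases read on opposite strands, since these neighbouring genes on chromosome 1 overlap at their starts. The stretches of Hspe1, Hspd1, Dnaja1 and Hsph1 overlap an annotated exon, and those of Hspa1a and Hspa1b do not. A longer match, with a further GAA or TTC unit at the same spacing, was held by 4 of the 12 windows (of Hspe1, Hspd1 and Hsph1, in the last beyond the start), against 0.603% of all windows. Dnajb1, an inducible gene, had no match in its windows. A match describes letters and not a bound site.

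Over all cells, each of the 10 chaperone genes had a lower mean level in Crep than in Cren hashtags. Of the 9653 genes tested, 50.1% had a log2 fold change below 0. The median log2 fold change was -0.64 over the inducible members, -0.23 over the constitutive members and -0.000589 over all genes tested. The inducible median was -0.41 without Cren hashtag 4. It was -0.37 with equal weight for the 5 of 12 cell clusters that had at least 20 cells in every hashtag. The difference between the classes was not tested. Only Hsp90aa1 passed an adjusted p of 0.05, where 0.611% of all genes passed in either direction and 0.269% passed as lower in Crep. In 7 of 10 members the unadjusted p was under 0.05, which held for 11.1% of all genes tested. In 6 of 10 members every Crep hashtag lay below every Cren hashtag, which held for 3.26% of all genes tested. Each value below comes from UMIs summed over all cells of a hashtag, so a change in the mix of cell states and a change in level per cell cannot be told apart in it.

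**Figure D1:**
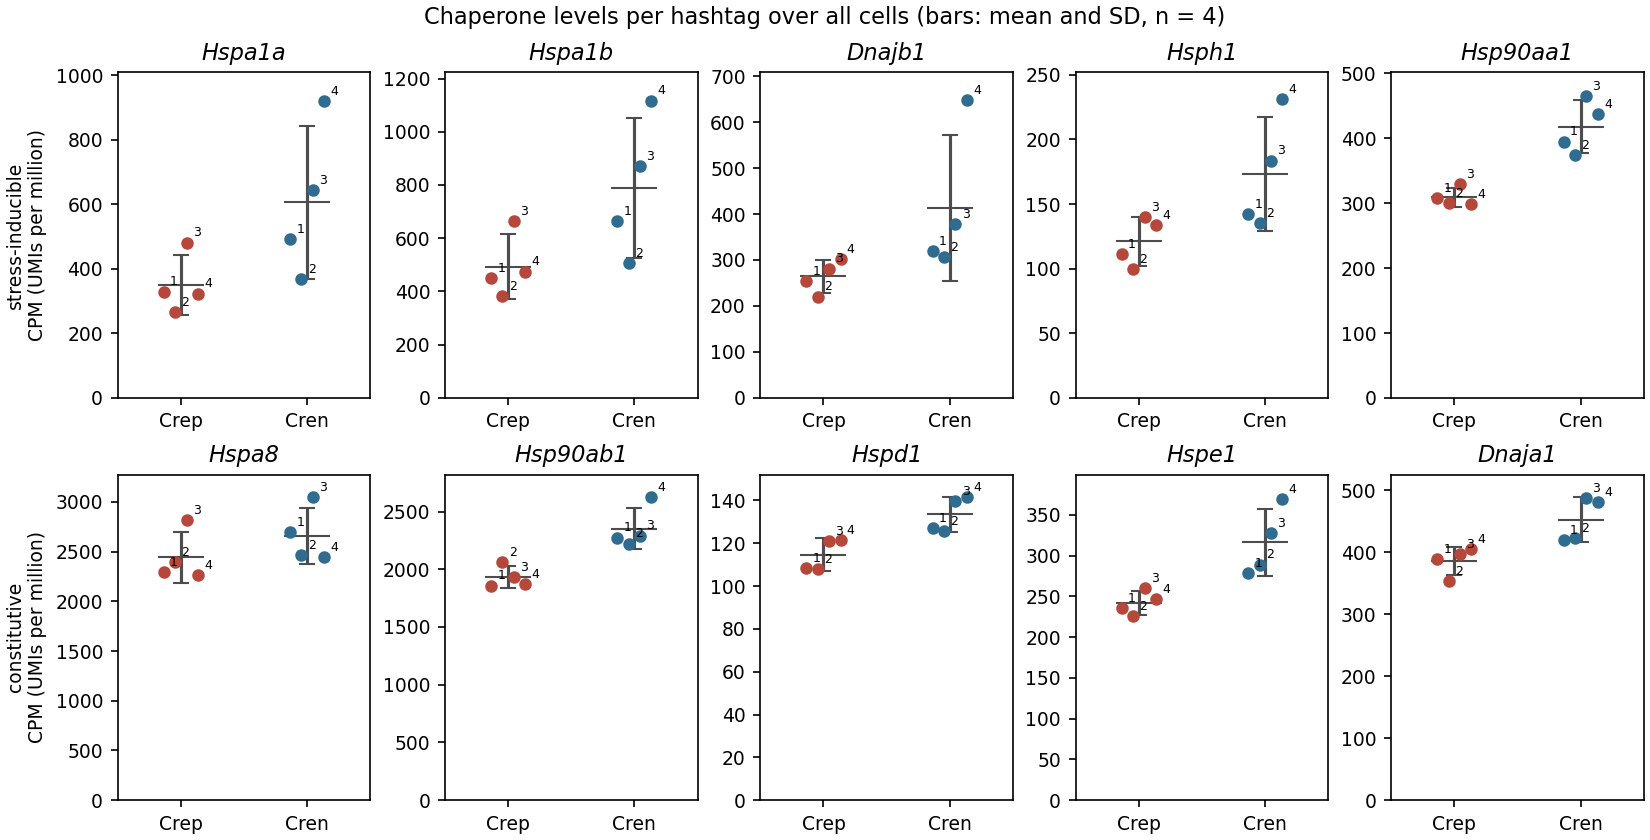
CPM of each chaperone gene (y axis, from 0) in the 4 Crep and 4 Cren hashtags over all cells, numbered as in the annotation, with stress-inducible genes above and constitutive genes below. Bars give the mean and SD. Cren hashtag 4 stands highest for Hspa1a, Hspa1b, Dnajb1, Hsph1, Hsp90ab1, Hspe1 and Hspd1, and Hsp90aa1 separates the groups with little spread.

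The HSP70 genes Hspa1a (chr17:34969190-34972156) and Hspa1b (chr17:34956436-34959238) encode the main stress-induced HSP70 and had the largest fold changes of the 10 genes. Hspa1a had 329.7, 265, 482 and 323 CPM in Crep hashtags 1 to 4, against 492.5, 368, 643.5 and 919 CPM in Cren hashtags 1 to 4. Crep hashtag 3 lay above Cren hashtag 2, so the groups overlapped, and Cren hashtag 4 was the highest of all. The log2 fold change was -0.79 with an SE of 0.33 (edgeR adjusted p = 0.451). Hspa1b had 450.3, 382, 665 and 474 CPM in Crep, against 664, 507, 869.5 and 1117 CPM in Cren, with the same overlap between Crep hashtag 3 and Cren hashtag 2 (log2 -0.68, SE 0.29, adjusted p = 0.459). Neither difference passed the test. Without Cren hashtag 4 the log2 fold change of Hspa1a was -0.52 (adjusted p = 0.67).

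Hspa1a and Hspa1b are near-identical copies, and 71.8% of the 50-base words in the first 500 bases of the Hspa1a transcript also occur in those of Hspa1b. The 5′ kit reads transcript starts, and how reads shared between both copies were assigned is not given in the sources used here. The ratio of Hspa1b to Hspa1a UMIs was 1.37, 1.44, 1.38 and 1.47 in Crep hashtags, against 1.35, 1.38, 1.35 and 1.22 in Cren hashtags. It lay between 1.30 and 1.51 in 10 of 12 fine clusters. Counted as 1 gene, the pair differed by -0.73 on the log2 scale (adjusted p = 0.451).

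Dnajb1, the inducible HSP40 that works with HSPA1, had 254, 220.2, 281 and 302 CPM in Crep, against 319.6, 306.5, 377 and 647 CPM in Cren. Every Crep hashtag lay below every Cren hashtag, by a narrow margin except against Cren hashtag 4. Its log2 fold change was -0.64 (SE 0.27, edgeR adjusted p = 0.447), and -0.34 without Cren hashtag 4 (adjusted p = 0.265). With the 5 clusters given equal weight, it was -0.21 (limma adjusted p = 0.856).

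Hsph1, the HSP110 nucleotide exchange factor, had 111.5, 99.7, 139.8 and 133 CPM in Crep, against 142, 135.5, 183.5 and 231 CPM in Cren. Crep hashtag 3 exceeded Cren hashtag 2, and the difference did not pass (log2 -0.51, SE 0.19, adjusted p = 0.348). With the 5 clusters given equal weight the log2 fold change was -0.31 for Hsph1 and -0.41 for Hspa1b.

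Hsp90aa1, the inducible cytosolic HSP90 (chr12:110690605-110702728), had 308, 300.5, 329.9 and 299 CPM in Crep, against 395, 374, 465 and 437 CPM in Cren. The lowest Cren hashtag lay above the highest Crep hashtag, and the 4 Crep values were close together. Hsp90aa1 fell in Crep, to a mean of 309 ± 14.3 CPM against a Cren mean of 418 ± 40.9 CPM (SD, n = 4 each; log2 -0.43, SE 0.08, edgeR adjusted p = 0.0303). It was lower in Crep in every alternative fit, with log2 fold changes of -0.52 to -0.37. The call was lost without Crep hashtag 1, 2, 3 or 4 (adjusted p 0.0893, 0.0967, 0.0552 and 0.0674), without Cren hashtag 1 or 4 (0.0697 and 0.0505), with limma-voom (0.0624) and with clusters weighted equally (0.0883).

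Among the constitutive members, Hspa8, the housekeeping HSP70 known as HSC70, differed least. It had 2297, 2394, 2817 and 2262 CPM in Crep, against 2694, 2464, 3048 and 2443 CPM in Cren. Only Crep hashtag 3 lay within the Cren range (log2 -0.12, SE 0.10, edgeR adjusted p = 0.703), with log2 fold changes of -0.20 without Crep hashtag 3, -0.05 without Cren hashtag 3 and -0.08 with clusters weighted equally. Hsp90ab1, the constitutive cytosolic HSP90, had 1858, 2063, 1934 and 1874 CPM in Crep, against 2275, 2223, 2292 and 2622 CPM in Cren. Its groups did not overlap, but it did not pass over all genes (log2 -0.28, SE 0.08, adjusted p = 0.143). DESeq2 on the same sums called it (adjusted p = 0.0315).

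The mitochondrial pair also had non-overlapping groups without a call. Hspe1, the HSP10 lid of the chamber, had 236, 225.5, 260 and 247 CPM in Crep, against 279, 289, 327.5 and 369.8 CPM in Cren (log2 -0.38, SE 0.09, edgeR adjusted p = 0.0733). Hspd1, the HSP60 barrel, had 108, 108, 121 and 122 CPM in Crep, against 127, 126, 139.8 and 141 CPM in Cren (log2 -0.22, SE 0.08, adjusted p = 0.313). DESeq2 called Hspe1 (adjusted p = 0.0298) and not Hspd1, and with clusters weighted equally the log2 fold change of Hspe1 was -0.23. Because both genes start in the same short stretch on opposite strands, reads of one can be counted for the other if strand was not used, which the sources used here do not state. Dnaja1, a constitutive HSP40, had 389, 354, 397 and 405 CPM in Crep, against 419.5, 422, 487 and 480.2 CPM in Cren, again without overlap (log2 -0.23, SE 0.08, adjusted p = 0.275).

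**Figure D2:**
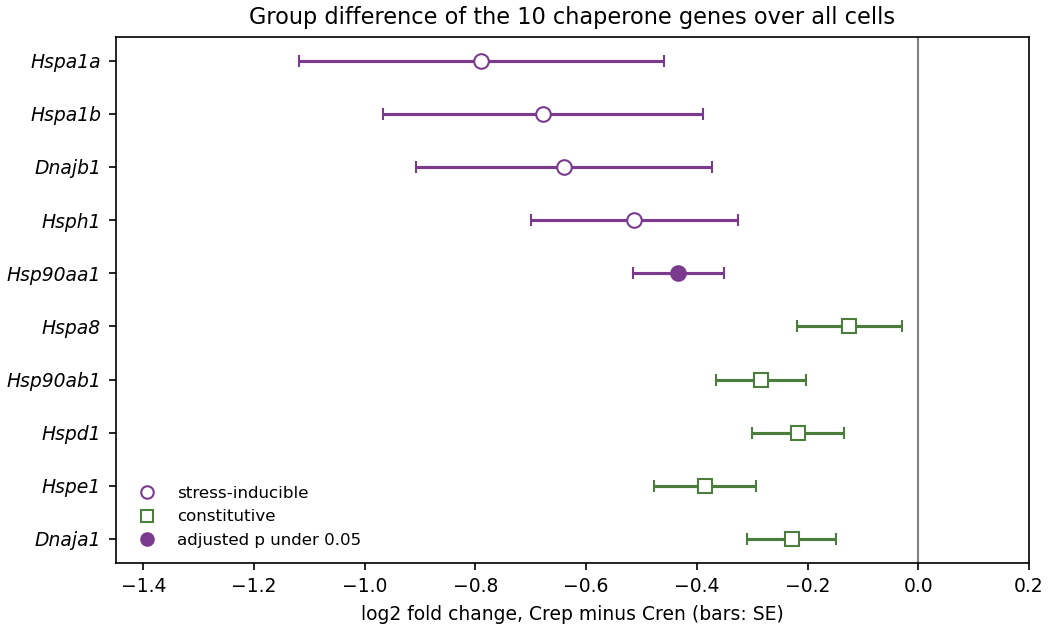
Log2 fold change (x axis, Crep minus Cren) of the 10 chaperone genes over all cells, with the SE as bars. Circles are stress-inducible and squares constitutive genes; the filled circle is Hsp90aa1 at -0.43, the one gene that passed, and the points run from -0.79 for Hspa1a to -0.12 for Hspa8.

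Summed by class, the constitutive genes separated the groups and the inducible genes did not. On plain library totals, the 5 constitutive genes held 4971, 5033, 5445 and 4903 CPM in Crep, against 5799, 5581, 6233 and 5985 CPM in Cren. The 5 inducible genes held 1478, 1240, 1869 and 1529 CPM in Crep, against 2015, 1709, 2514 and 3311 CPM in Cren, where Crep hashtag 3 lay above Cren hashtag 2. The ratio of inducible to constitutive UMIs was 0.297, 0.246, 0.343 and 0.312 in Crep, against 0.347, 0.306, 0.403 and 0.553 in Cren. It averaged 0.30 ± 0.04 in Crep and 0.403 ± 0.108 in Cren (SD, n = 4 each), with overlapping groups, and was not tested because it is a score over chosen genes. Without Cren hashtag 4 the difference was -0.05, against -0.10 with it.

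The authors' annotation carries a heat shock percentage for each cell. Its values were matched to within 0.02 percentage points in 99.8% of cells by the UMIs of 17 genes whose names start with Hspa, Hspb, Hspd or Hspe. That set holds 5 of the 10 chaperones and leaves out Hsp90aa1, Hsp90ab1, Hsph1, Dnaja1 and Dnajb1, which hold 45.5% of the members' UMIs. Hspa8 alone supplied 54.2% of its UMIs, and Hspa1a with Hspa1b 23.4%. Averaged over cells it was 0.414%, 0.395%, 0.48% and 0.397% in Crep hashtags, against 0.483%, 0.448%, 0.568% and 0.56% in Cren hashtags, with overlapping groups.

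The spread of UMIs over single cells was compared at equal depth. For this, each cell was thinned to 2000 UMIs, which left out 986 Crep cells and 937 Cren cells with fewer. The share of cells with a Hspa1a or Hspa1b UMI was 36.0%, 31.6%, 42.6% and 39.2% in Crep hashtags, against 45.9%, 42.7%, 50.2% and 63.8% in Cren hashtags. All Crep shares lay below all Cren shares, Crep hashtag 3 and Cren hashtag 2 by 42.64% against 42.69%. The mean was 37.4% ± 4.69 in Crep and 50.6% ± 9.30 in Cren (SD, n = 4 each; exact two-sided permutation p = 0.0286, the smallest that 70 splits allow). The exact p was 0.0571 with each of 2 other random seeds for the thinning, chosen after the data were seen, and 0.0571 without thinning, where the shares averaged 42.7% in Crep and 55.0% in Cren. At 1000 or 1500 UMIs per cell it was 0.0857, so the call rests on the order of 2 nearly equal hashtags. Without Cren hashtag 4 the difference was -8.87 percentage points, against -13.3 with it (exact p = 0.0571).

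The table holds no cell type that lacks heat shock genes, so the level of free chaperone RNA could not be read. Shares of cells with myeloid genes are given instead. Free RNA, cells captured together and remaining myeloid cells cannot be told apart in them. At the same depth C1qb was seen in 2.44% ± 0.530 of cells in Crep hashtags and 2.14% ± 0.615 in Cren hashtags, and Lyz2 in 10.4% ± 2.07 in Crep and 9.55% ± 1.14 in Cren (SD, n = 4 each). Shares of cells with an Hsp90aa1 UMI were 40.1%, 39.5%, 41.4% and 39.9% in Crep, against 47.4%, 47.9%, 49.2% and 48.1% in Cren, with a gap between the groups wider than either range. Hspa8 was seen in nearly all cells, 97.7% ± 0.996 in Crep hashtags and 98.4% ± 0.940 in Cren hashtags (SD, n = 4 each).

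**Figure D3:**
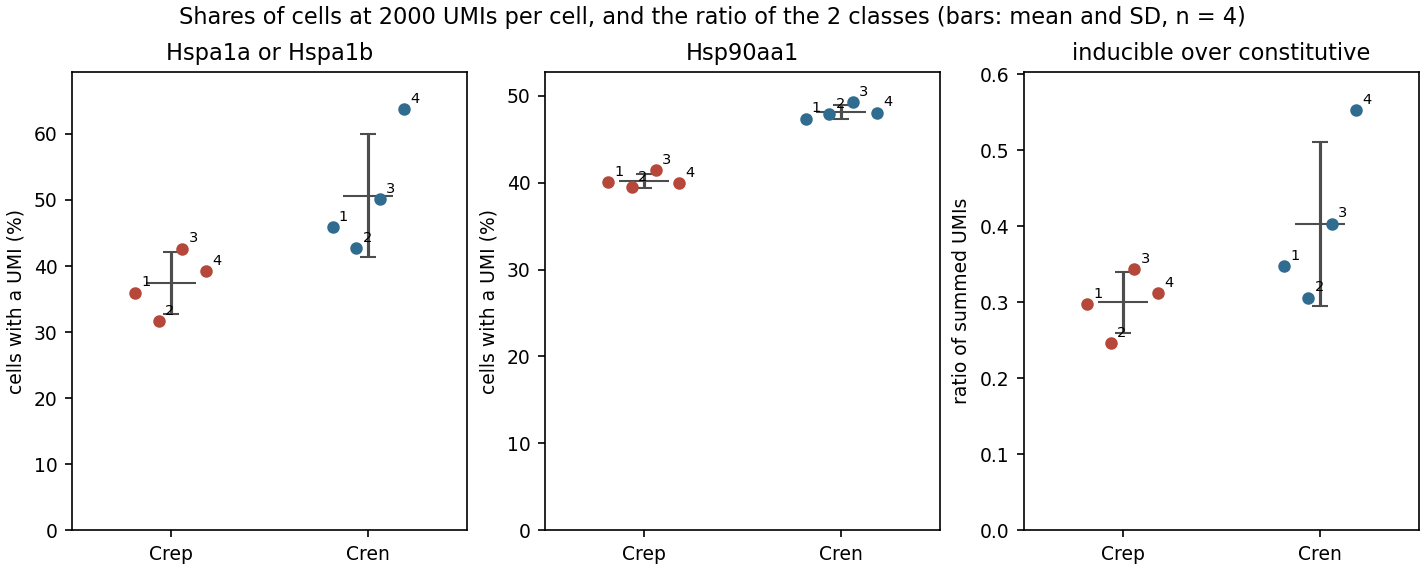
Left and middle, share of cells (y axis, percent) with at least 1 UMI of Hspa1a or Hspa1b and of Hsp90aa1 at 2000 UMIs per cell; right, the ratio of summed inducible to constitutive UMIs over all cells. Points are the 4 Crep and 4 Cren hashtags with mean and SD; Hsp90aa1 lies at 39.5% to 41.4% in Crep and 47.4% to 49.2% in Cren, while the ratio overlaps.

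Hspa1a and Hspa1b were unevenly spread over cells. Their summed UMIs had a variance over cells of 6.76 to 11.0 times the mean in Crep hashtags and 7.73 to 11.9 times the mean in Cren hashtags, where independent random counts would give 1. The same quantity was 2.33 to 3.08 in Crep and 2.15 to 6.42 in Cren for Dnajb1, and 1.73 to 2.11 in Crep and 1.95 to 2.49 in Cren for Hspa8. It was 1.28 to 1.54 in Crep and 1.42 to 2.04 in Cren for Hsph1, and 1.35 to 1.72 in Crep and 1.42 to 1.71 in Cren for Hsp90aa1. For Hspd1 it was 1.04 to 1.11 in Crep and 1.03 to 1.22 in Cren. Cells with at least 5 UMIs of Hspa1a and Hspa1b made up 9.64%, 7.94%, 13.8% and 11.4% of Crep hashtags, against 18.6%, 12.7%, 20.9% and 27.0% of Cren hashtags. Crep hashtag 3 again lay above Cren hashtag 2.

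Other inducible members were detected more often in cells with a Hspa1a or Hspa1b UMI than in cells without one, although most such cells lacked Hsph1. At 2000 UMIs per cell, Dnajb1 was seen in a median of 48.5% of cells with a Hspa1a or Hspa1b UMI and 26.1% of cells without one, higher in 8 of 8 hashtags. For Hsph1 these medians were 32.3% with and 12.7% without, and for Hsp90aa1 55.5% with and 33.9% without, both in 8 of 8 hashtags. The constitutive genes Hsp90ab1, Hspe1 and Dnaja1 were also seen more often in cells with a Hspa1a or Hspa1b UMI in 8 of 8 hashtags. Mean UMIs of Hspe1 and Dnaja1, constitutive members, were 1.76 and 1.48 times as high with as without (medians over hashtags). For Hspa8 and Hspd1 the ratios were 1.16 and 1.23, the smallest of the 8 genes compared. These are descriptions of cells from shared hashtags and carry no test.

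Chaperone levels differed across the 12 fine clusters of the annotation, whose cells were clustered on genes that may include them, so levels between clusters are described without a test. Over the cells of both groups, the inducible genes summed to the most in cluster 1, where Hspa1a, Hspa1b, Dnajb1 and Hsph1 were 4 of the 10 leading genes. Of the 5 stem-like markers, Tcf7 and Slamf6 were raised there, as they were in cluster 5. In order of the level over all cells of a cluster, the inducible sum was 3113 CPM in cluster 1, 2598 in 9, 2537 in 10, 2153 in 5, 2152 in 8, 2088 in 4, 2079 in 0, 1840 in 2, 1319 in 11, 1212 in 3, 1122 in 6 and 1083 in 7. Over hashtags with at least 20 cells it averaged 2930 ± 806 CPM in cluster 1 (SD, n = 8), 2054 ± 326 in cluster 0 (n = 8), 1179 ± 415 in cluster 6 (n = 8) and 987 ± 184 in cluster 7 (n = 4). The ranges over hashtags of each cluster and the one above it overlapped wherever both had such hashtags. Cluster 7 had raised markers of cytotoxic cells (Gzmb, Gzma, Prf1, Klrg1 and Klrd1) and held 570 Crep cells and 22 Cren cells, while cluster 1 held 367 Crep cells and 819 Cren cells. Such unequal shares enter the order: cluster 4, with 748 Crep and 219 Cren cells, averaged 1758 CPM over 4 Crep hashtags and 3418 CPM over 2 Cren hashtags, and cluster 1 averaged 2720 CPM in Crep and 3140 CPM in Cren (n = 4 each).

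The constitutive sum, again over the cells of both groups, followed another order. It was 8438 CPM in cluster 11, 6269 in 10, 6208 in 1, 5800 in 8, 5663 in 5, 5567 in 2, 5395 in 6, 5369 in 9, 5301 in 0, 5204 in 3, 4958 in 4 and 4854 in 7. Cluster 4 averaged 4714 CPM over 4 Crep hashtags and 6084 CPM over 2 Cren hashtags, and its Cren mean lay above those of clusters 8, 5, 2, 6, 0 and 3 (5452 to 5824 CPM). Cluster 11, with 73 cells led by Penk, Ccl1, Xcl1 and Tnfrsf9, had the highest level of Hspd1 (422 CPM, against 168 in the next cluster), Hspa8 (3520), Hsp90ab1 (3733) and Hspe1 (434.5). It also had the lowest level of Hspa1a (181 CPM), Dnajb1 (131 CPM) and Dnaja1 (328 CPM) of any cluster. These levels rest on 58, 42 and 105 UMIs, and their 95% Poisson intervals overlap those of the next lowest cluster. Cluster 11 had a ratio of inducible to constitutive UMIs of 0.156, against 0.501 in cluster 1. Its median depth was 4081 UMIs per cell, the highest of the 12 clusters, and only 1 hashtag had at least 20 of its cells, so no spread over hashtags can be given. The Hspd1 level there rests on 135 UMIs, with a 95% Poisson interval of 354 to 499.5 CPM that covers counting error only.

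Cluster 9, 119 cells with a median of 1007 UMIs and a median mitochondrial share of 2.04%, was highest for Hsph1 (403 CPM), Hsp90aa1 (812 CPM) and Dnaja1 (657 CPM). Its low depth and high mitochondrial share move with these levels, and their part in them was not tested. The levels rest on 70, 141 and 114 UMIs, and no hashtag had at least 20 of the cluster's cells. The next highest levels were 224.7 CPM for Hsph1 (cluster 1), 581.5 CPM for Hsp90aa1 (cluster 11) and 538 CPM for Dnaja1 (cluster 10). Across clusters the highest level exceeded the lowest by 5.23 times for Hsph1, 4.45 times for Hspa1a and 4.49 times for Dnajb1, and by 1.72 times for Hspa8 and 1.96 times for Hspe1. For Hspd1, a constitutive gene, this was 3.93 times, and for Hsp90aa1, an inducible one, 3.04 times.

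**Figure D4:**
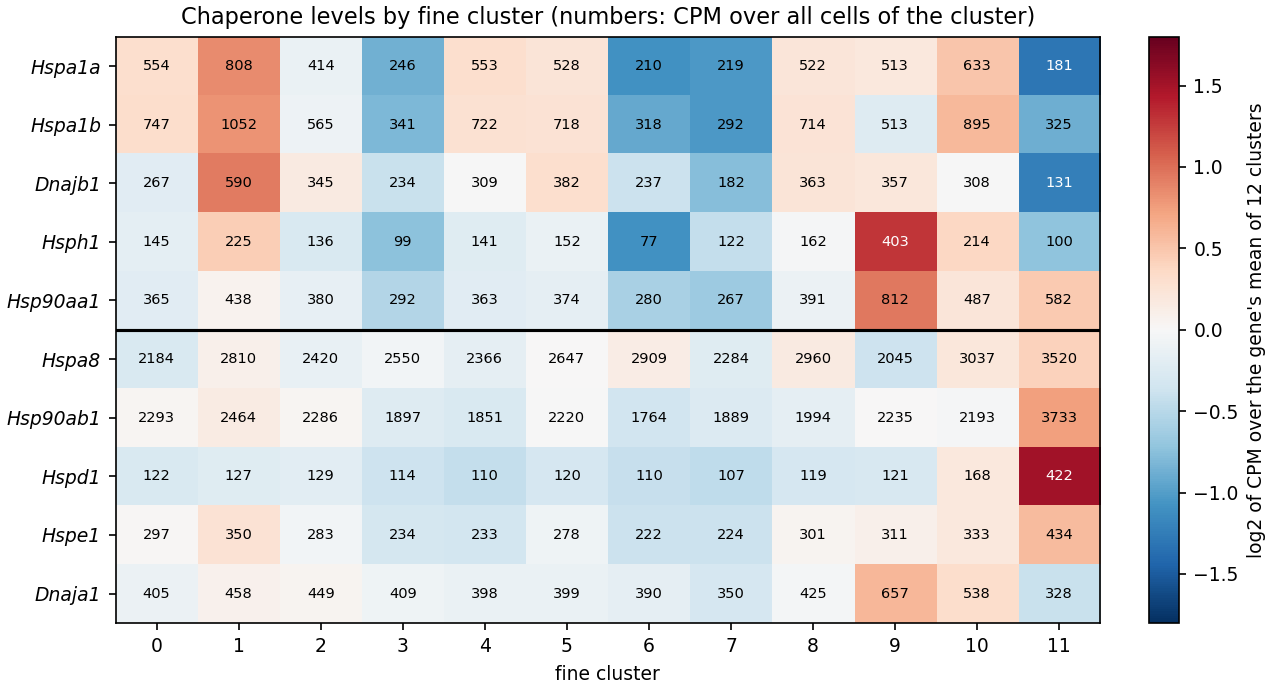
Level of each chaperone gene (rows) in the 12 fine clusters (columns); printed numbers are CPM over all cells of the cluster, and colour is the log2 of that level over the gene's mean of 12 clusters. The inducible genes stand above the line with Hspa1a, Hspa1b and Dnajb1 highest in cluster 1, and Hspd1, Hspe1, Hspa8 and Hsp90ab1 are highest in cluster 11.

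Within clusters, no chaperone gene passed in any of the 6 of 12 clusters with enough hashtags. In edgeR fits of each cluster, 0 of 10 members had an adjusted p under 0.05 in clusters 0, 1, 2, 3, 5 and 6, where the share of all genes called was 0.98%, 0.173%, 0.28%, 0%, 1.19% and 0.0269%. DESeq2 also called 0 in each. The number of members with an unadjusted p under 0.05 was 0, 2, 5, 3, 3 and 6 with edgeR, in the same order of clusters. With DESeq2 it was 0, 1, 3, 1, 3 and 6. In the edgeR fits an unadjusted p under 0.05 held for 8.58%, 6.45%, 6.13%, 5.74%, 10.3% and 5.71% of all genes tested. The log2 fold change was below 0 in 9, 10, 9, 10, 10 and 10 of the 10 members, and in 50.7% to 52.7% of all genes tested. Without Cren hashtag 4 it was below 0 in 6 of 10 members in cluster 1. The median over the inducible members was -0.14, -0.28, -0.59, -0.49, -0.83 and -0.56, and over the constitutive members -0.10, -0.12, -0.22, -0.20, -0.28 and -0.24.

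The fold changes of the HSP70 pair were nearest 0 in clusters 0 and 1 and farthest from it in clusters 5 and 6; of these contrasts between clusters, the pair 0 and 1 was tested. In cluster 6, Hspa1a averaged 112 ± 64.5 CPM in Crep hashtags and 379 ± 239.7 CPM in Cren hashtags (SD, n = 4 each; log2 -1.28, SE 0.49, edgeR adjusted p = 0.855), and there every Crep hashtag lay below every Cren hashtag. In cluster 1 it averaged 638 ± 148 CPM in Crep and 838 ± 314 CPM in Cren (n = 4 each; log2 -0.42, SE 0.32, adjusted p = 0.897), with overlap. Hsp90aa1 had log2 fold changes of -0.04 in cluster 0 and -0.20 in cluster 1, and of -0.53, -0.51, -0.47 and -0.55 in clusters 2, 3, 5 and 6. None of these passed; its smallest adjusted p was 0.112, in cluster 5. With hashtags of at least 40 cells, Hspa1a passed in cluster 6, and without Cren hashtag 3 Dnajb1 passed in cluster 2.

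A test of whether the group effect differed between clusters 0 and 1 found no such chaperone. In the edgeR fit with the hashtag as a block, 0 of 10 members passed where 0.134% of all genes did, and 0 had an unadjusted p under 0.05 (limma-voom: 0 passed and 1 had an unadjusted p under 0.05). The effect in cluster 1 minus that in cluster 0 ran from -0.25 for Hsph1 to 0.11 for Hspa1b on the log2 scale.

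**Figure D5:**
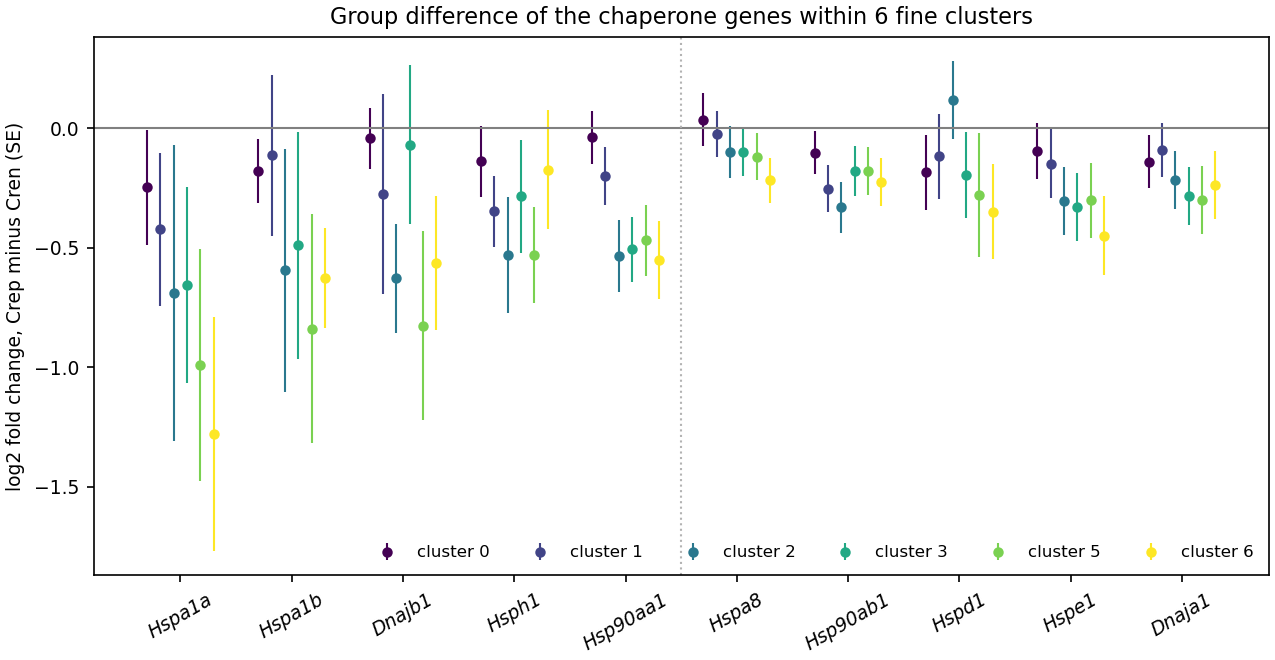
Log2 fold change (y axis, Crep minus Cren, bars SE) of each chaperone gene within fine clusters 0, 1, 2, 3, 5 and 6. Points above 0 are Hspa8 in cluster 0 and Hspd1 in cluster 2; Hspa1a in cluster 6 is lowest at -1.28, and no point passed.

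The rest of the folding machinery did not share one direction. Of the 23 tested cytosolic co-chaperones and HSF1 targets, 16 were lower and 7 higher in Crep with a median log2 of -0.07, and 0 passed. The 3 with the smallest p were Stub1, a ubiquitin ligase that serves HSP70 (0.28, edgeR adjusted p = 0.254), Cacybp (-0.27, adjusted p = 0.311) and St13, an HSP70 co-factor (-0.26, adjusted p = 0.35). The cytosolic chaperonin TRiC had 6 of 7 tested subunits lower (median -0.11, 0 passed), led by Cct4 (-0.19), Cct3 (-0.20) and Cct5 (-0.15). The mitochondrial chaperones other than the members had a median of -0.02 over 7 genes with 0 passed, with Dnaja3 at 0.42, Lonp1 at -0.28 and Grpel1 at -0.02. Hsf1 itself averaged 39.9 ± 2.11 CPM in Crep hashtags and 36.2 ± 3.52 CPM in Cren hashtags (SD, n = 4 each; log2 0.14, adjusted p = 0.704). Hsf2 (-0.36) and Hsbp1, which encodes a protein that binds HSF1 (0.08), did not pass either.

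Of 14 chaperones of the endoplasmic reticulum tested, 10 had higher and 4 lower means in Crep, with a median log2 of 0.22, and 1 passed. Hsp90b1, the HSP90 of that compartment, had 257, 324, 301 and 268 CPM in Crep, against 194.5, 211, 235 and 216 CPM in Cren. Every Crep hashtag lay above every Cren hashtag, and Hsp90b1 was higher in Crep (log2 0.43, SE 0.09, edgeR adjusted p = 0.0427). Hsp90aa1 was lower in Crep, and the contrast between both genes was not tested. Manf (0.23, adjusted p = 0.307) and Pdia3 (0.19, adjusted p = 0.35) did not pass. Hspa5, the reticulum HSP70 known as BiP, differed by -0.0038 on the log2 scale (adjusted p = 0.994).

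Early response genes, which tissue handling is known to raise, were lower in Crep in 10 of 12 cases with a median log2 of -0.18 and 0 passed. Zfp36 (-0.43, edgeR adjusted p = 0.245), Egr1 (-0.55, 0.448) and Fos (-0.33, 0.465) had the smallest p-values. Their summed level was 5418 to 8234 CPM in Crep and 7063 to 9120 CPM in Cren, and the mitochondrial share was lower in Crep as well. The part of either in the chaperone differences was not tested. In cells at or below the median mitochondrial share of all cells, Hsp90aa1 differed by -0.50 on the log2 scale (adjusted p = 0.00991) and Hspa1a by -1.01 (adjusted p = 0.558).

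Across 64 sums per hashtag and fine cluster, the non-member genes most like the inducible sum among 4150 searched included Ccdc117 (Spearman rho 0.66), Swt1 (0.56), Rpl35 (0.51) and Rpl21 (0.50). For the constitutive sum they included Ccdc117 (0.58), Ifi27l2a (0.56), Ndufa4 (0.56) and Rps26 (0.55). The inducible members followed the sum of the other 4 with rho of 0.90 for Hspa1a, 0.95 for Hspa1b, 0.88 for Hsph1, 0.76 for Dnajb1 and 0.73 for Hsp90aa1, which followed the constitutive sum with 0.76. Among constitutive members, Hspe1 followed the inducible sum with 0.70, Hsp90ab1 with 0.625, Dnaja1 with 0.62, Hspa8 with 0.29 and Hspd1 with 0.25. These sums share hashtags, depth and cluster, so the values are descriptions with no p.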

How the data were processed

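Single-cell gene expression was read from a deposited table of raw UMI counts per gene and cell and from the authors' annotation of each cell, whose heat shock and mitochondrial values are a percent of the cell's UMIs per the file headers. Per the submitters' processing notes, the mm10 build, Seurat 4.3.0, Cell Ranger 7.0.0 and bcl2fastq 2.20.0.422 were used, in steps the notes do not assign. Hashtag, group and fine cluster were taken from the annotation; for 115 of 8562 cells the 2 deposited hashtag classifiers did not both give the annotated hashtag. No doublet caller was run here.

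The counts were summed per hashtag, or per hashtag and cluster, and tested with edgeR 4.0.16 in R 4.3.3 (TMM, filterByExpr, quasi-likelihood test, Benjamini-Hochberg over all genes tested, threshold 0.05). Every adjusted p is from this test unless another tool is named. A cluster was tested where 3 or more hashtags per group had 20 or more of its cells. Equal cluster weighting took the mean log2 CPM over the 5 clusters with 20 or more cells in every hashtag, and limma 3.58.1. DESeq2 1.42.0 and limma-voom were alternatives. For shares of cells, each cell was thinned to 2000 UMIs with seed 1 in Python 3.11.15, and the exact permutation test used scipy 1.17.1. A cluster's marker was raised when 1.5 times the other cells' level and seen in 5% of its cells. Depth was 2635241 to 4201265 UMIs per hashtag, and intervals cover counting error only.

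All 10 chaperones are named in every comparison. Of each other list the genes that passed and the 3 with the smallest p are named, and for likeness those among the 5 genes with the highest rho, of which 1 is not reported here. The members and lists were chosen with earlier results of these data known.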

Additional observations from a re-analysis of the deposited data

How the results depend on the processing

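All 10 chaperones were lower in Crep under each alternative over all cells. The number of genes called, 59 as reported, was 143 with DESeq2, 20 with limma-voom, 118 with the replicate block, 29 in cells of lower mitochondrial share, 34 after thinning, and 20 with equal cluster weights. It was 37, 26, 94 and 26 without clusters 4, 5, 6 and 7, and 14 to 121 with 1 hashtag left out. Chaperones called numbered 3 with DESeq2 (Hsp90aa1, Hsp90ab1, Hspe1), 3 with the replicate block (Hsph1, Hsp90aa1, Hspe1), 0 with limma-voom, 0 with equal cluster weights and 0 to 1 with 1 hashtag left out. Within clusters 1 was called with at least 40 cells (Hspa1a, cluster 6), and 0 to 1 with 1 hashtag left out. The difference in the share of cells with Hspa1a or Hspa1b, in percentage points, was -11.6 at 1000 UMIs, -11.9 at 1500, -12.3 unthinned, -12.1 for at least 2 UMIs, -14.0 at lower mitochondrial share, -12.2 with each other seed (chosen after the data were seen), and -15.9 to -8.87 with 1 hashtag left out. The ratio of inducible to constitutive UMIs kept its direction throughout, at -0.135 to -0.0526. The causes were not tested. Same-numbered hashtags deviated together with correlations of -0.0468, 0.148, 0.182 and 0.123, and 3 of the 4 Crep hashtags correlated best with the Cren hashtag of their own number (Crep 1 with Cren 2). This is a hint from the data; with 1 pair below 0.1 and no label that ties the numbers, they were not treated as pairs. Few cells limit clusters 9, 10 and 11 (119, 112 and 73 cells), where at most 1 hashtag had 20 cells. Cluster 9 was also the lowest in depth, with a median of 1007 UMIs per cell.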
